A study of Rattus norvegicus with 12 samples.

Results

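Mitochondria join and divide continually, and 10 genes whose proteins carry out or regulate that cycle were followed across hearts of sham-operated rats, infarcted rats and infarcted rats given urolithin A (UA), a gut microbial metabolite of dietary ellagitannins. The genes were taken from the count table by name: Opa1, Mfn1, Mfn2, Dnm1l, Fis1, Mff, Mief1, Mief2, Oma1 and Yme1l1. All 10 were among the 30560 genes of the deposited count table, and all 10 passed the filter of 10 counts in total that left 18182 genes to test. RNA came from formalin-fixed, paraffin-embedded tissue of the left ventricle, with 1 library per rat and 4 rats per group. The animals were male Wistar rats of 7 weeks at surgery. Sham rats had the chest opened with no suture around the coronary artery and received the carboxymethylcellulose vehicle. MI rats had a lasting ligation of the left anterior descending coronary artery and received the same vehicle, and MI + UA rats had the ligation and received UA. Vehicle and UA were given by gavage each day for 8 weeks, from 24 h after surgery by the design text, whereas the study's account of its results places the start later. The rats carry the numbers that the labels give them, and rat 66 is MI + UA by its label but stands with the vehicle-treated MI rats in the study's echocardiography table.

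Fusion of the outer membranes is driven by the mitofusins Mfn1 and Mfn2, and fusion of the inner membranes by Opa1, all large GTPases anchored in the membrane. Fission is driven by Dnm1l (Drp1), a cytosolic GTPase that assembles into rings on mitochondria after binding receptors in the outer membrane, among them Mff, Fis1 and the MiD proteins Mief2 (MiD49) and Mief1 (MiD51). The inner membrane proteases Oma1 and Yme1l1 cut Opa1 and so set the balance of its long, fusion-active forms and its short forms. Cardiomyocytes are packed with mitochondria in rows between the myofibrils, and loss of the mitofusins or of Opa1 from heart muscle is known to impair its function in mice.

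Between 6228706 and 19031695 reads per library fell on genes, and the 13 mitochondrially encoded genes took from 50.2% to 58.6% of them. Heart muscle was plainly present by the summed level of the 11 cardiomyocyte markers in the table. Of these markers, 0 were at 0 in the whole series. The summed level of those markers, in CPM (reads of a gene relative to the library total, after TMM scaling), ran from 50200 to 56400 in Sham, from 34500 to 40700 in MI and from 36700 to 48300 in MI + UA. Most of this sum was Ttn, with means of 35300 CPM in Sham, 25900 CPM in MI and 27400 CPM in MI + UA. The 9 fibroblast markers summed to between 1130 and 1440 CPM in Sham, between 2200 and 3590 CPM in MI and between 2220 and 3700 CPM in MI + UA. The largest of them was Col3a1, with means of 456 CPM in Sham, 1250 CPM in MI and 1310 CPM in MI + UA. The 8 macrophage markers summed to between 121 and 152 CPM in Sham, 246 and 397 CPM in MI, and 206 and 424 CPM in MI + UA, and no marker of either list was at 0 in the whole series. In bulk RNA of this kind, fewer cells of a type and less RNA per cell cannot be told apart.

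RefSeq promoter windows, the 250 bases before a start site on build GRCr8, were found for 9 of the 10 genes. Fis1 and Mief2 had 2 windows each, which made 11 windows, and Mfn2 had none. The 3 GTPase genes with a window are shown because the comparisons below turn on them, each 5′ to 3′ on the gene's strand. Capitals mark matches to the NRF1 motif GCGCANGCG, the ETS motif CCGGAAG or CCAAT on either strand.
Opa1, chr11:84689901-84690150, minus strand: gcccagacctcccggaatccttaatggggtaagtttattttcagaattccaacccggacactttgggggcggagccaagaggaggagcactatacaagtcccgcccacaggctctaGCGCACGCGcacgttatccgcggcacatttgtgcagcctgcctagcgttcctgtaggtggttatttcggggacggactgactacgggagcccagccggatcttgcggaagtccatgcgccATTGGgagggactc
Mfn1, chr2:117241508-117241757, plus strand: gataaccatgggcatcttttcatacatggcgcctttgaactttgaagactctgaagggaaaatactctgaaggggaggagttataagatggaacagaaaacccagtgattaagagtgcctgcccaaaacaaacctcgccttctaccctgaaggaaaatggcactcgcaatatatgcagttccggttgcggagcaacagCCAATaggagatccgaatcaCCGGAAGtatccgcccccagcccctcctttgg
Dnm1l, chr11:98085147-98085396, plus strand: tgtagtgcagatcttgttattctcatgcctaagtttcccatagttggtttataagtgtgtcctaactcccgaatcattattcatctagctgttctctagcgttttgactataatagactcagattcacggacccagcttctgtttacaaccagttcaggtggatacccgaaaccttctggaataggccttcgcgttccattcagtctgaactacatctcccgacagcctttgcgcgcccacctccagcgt

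The Opa1 window held a match to the motif of NRF1, a factor known for activating nuclear genes of mitochondria, beginning 134 bases before the start, and 5.09% of all 33469 windows held this motif. The Mfn1 window held the ETS motif 32 bases before the start, a motif found in 7.27% of windows. CCAAT was present in the windows of both genes, as in 34% of all windows, and the Dnm1l window held none of these 3 motifs. GGGCGG, the GC box, was in 10 of the 11 windows, with Dnm1l as the exception, and in 30.5% of all windows. AAGGTCA, the half-site bound by the oestrogen-related receptors that govern heart energy genes, was in 0 of the 11 windows and in 3.99% of all. TGACGTCA was in the Mief1 window (1.59% of all windows) and CACGTG in 1 of the 2 Mief2 windows (5.59% of all). CCGGAAG also occurred at 3 places in the Yme1l1 window. Both strands were searched, and a match describes the letters only.

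Infarction was compared with sham surgery first. The 3 fusion GTPases Opa1, Mfn1 and Mfn2 fell in MI, with percent changes from -19.1% for Opa1 to -25.7% for Mfn1, and no fission gene or protease passed the test in either direction. With edgeR's quasi-likelihood test, 3 of the 10 genes had an adjusted p under 0.05, against 11.4% of all genes tested. All 3 were lower in MI, where 5.53% of all genes were called lower and 5.82% higher. At an unadjusted p under 0.05 there were 5 of 10, against 23.9% of all genes, and in 4 of 10 the MI and Sham rats did not overlap, against 15.7%. The median log2 fold change of the 10 genes was -0.20, beside 0.026 over all genes tested, and 9 of 10 were lower in MI.

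**Figure D1:**
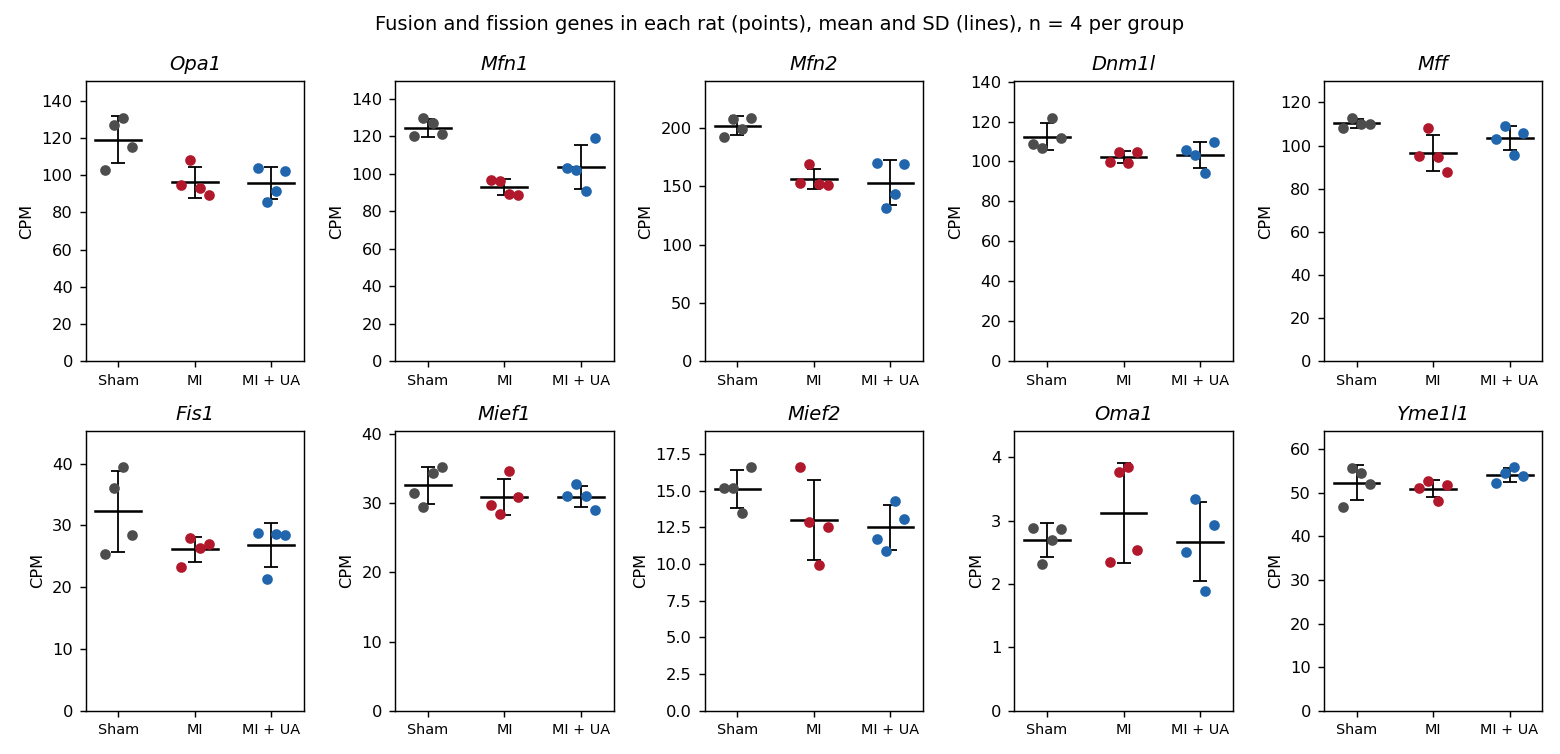
Level of each of the 10 genes in CPM (vertical axes, each starting at 0) in every rat, by group. Points are rats, wide lines are group means and bars are SD, n = 4. For Mfn1 and Mfn2 the 4 MI rats lie below the 4 Sham rats, whereas for Mief1, Oma1 and Yme1l1 the groups lie over each other.

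Mfn1 (ENSRNOG00000011057), the outer membrane mitofusin with the stronger tethering activity, had the smallest adjusted p of the 10. Its level was 120, 130, 127 and 121 CPM in Sham rats 12, 17, 32 and 38, and 96.8, 96.1, 89.3 and 88.7 CPM in MI rats 36, 57, 61 and 89. In MI + UA rats 29, 58, 64 and 66 it was 103, 102, 90.7 and 119 CPM. All MI rats were below all Sham rats, and so were all MI + UA rats, among which rat 66 came close to the lowest Sham rat. The means were 125 ± 4.8 CPM in Sham, 92.7 ± 4.33 CPM in MI and 104 ± 11.5 CPM in MI + UA (SD, n = 4). MI was lower than Sham by a log2 fold change of -0.43 (SE 0.08, 95% interval -0.60 to -0.25, edgeR adjusted p = 0.00194). The adjusted p stayed between 0.00278 and 0.00938 in the 8 fits that each left out 1 rat.

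Mfn2 (ENSRNOG00000046424), the mitofusin that also links mitochondria to the endoplasmic reticulum, moved by a like amount. In the same order of rats its level was 192, 208, 199 and 209 CPM in Sham, and 153, 169, 152 and 151 CPM in MI. In MI + UA it was 170, 131, 143 and 169 CPM. Neither infarcted group overlapped Sham, and MI rat 57 stood above the other MI rats. The means were 202 ± 8.12 CPM in Sham, 156 ± 8.57 CPM in MI and 153 ± 19.3 CPM in MI + UA (SD, n = 4). The log2 fold change of MI versus Sham was -0.37 (SE 0.09, 95% interval -0.55 to -0.19, edgeR adjusted p = 0.00751), with adjusted p between 0.00604 and 0.0285 when 1 rat was left out.

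Opa1 (ENSRNOG00000001717), which fuses the inner membrane and holds cristae in shape, was lower in MI with less certainty. Its level was 103, 127, 131 and 115 CPM in Sham, 94.5, 108, 92.9 and 89.3 CPM in MI, and 104, 85.4, 91.6 and 102 CPM in MI + UA. The groups overlapped through Sham rat 12, the lowest of its group, and MI rat 57, the highest of its own, and MI was lower in 15 of the 16 pairs of rats. The mean fell from 119 ± 12.6 CPM in Sham to 96.2 ± 8.27 CPM in MI (SD, n = 4), a log2 fold change of -0.31 (SE 0.09, 95% interval -0.50 to -0.11, edgeR adjusted p = 0.0386). The call was kept in 2 of the 8 fits that left out 1 rat. It was lost without Sham rat 17 (edgeR adjusted p = 0.114), 32 (0.134) or 38 (0.064) and without MI rat 36 (0.0781), 61 (0.10) or 89 (0.12).

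Dnm1l (ENSRNOG00000001813), the fission GTPase, was lower in every MI rat than in any Sham rat, by a small amount that did not pass the test. Its level was 109, 107, 122 and 112 CPM in Sham, and 99.7, 105, 99.4 and 105 CPM in MI. In MI + UA it was 106, 103, 94.2 and 110 CPM, which overlapped both other groups. The log2 fold change of MI versus Sham was -0.14 (SE 0.08, 95% interval -0.30 to 0.02, edgeR adjusted p = 0.306). That interval leaves room for a fall nearly as large as the one of Opa1, described above.

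Mff (ENSRNOG00000015428), a tail-anchored receptor of Dnm1l, stood at 108, 113, 110 and 110 CPM in Sham and 95.3, 108, 94.7 and 87.9 CPM in MI. In MI + UA it was 103, 109, 95.7 and 106 CPM. MI rat 57 came within a fraction of the lowest Sham rat but did not pass it, and the MI + UA rats overlapped both groups. The log2 fold change of MI versus Sham was -0.20 (SE 0.08, 95% interval -0.36 to -0.03, edgeR adjusted p = 0.128). Mff passed the threshold in 1 of the 8 fits with 1 rat left out, that without MI rat 57 (log2 fold change -0.25, edgeR adjusted p = 0.0469).

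Fis1 (ENSRNOG00000001420), a small outer membrane adaptor, varied more among Sham rats than any other receptor, at 25.3, 36.1, 39.4 and 28.4 CPM. It was 23.3, 27.9, 26.4 and 27 CPM in MI and 28.7, 21.4, 28.6 and 28.4 CPM in MI + UA. The groups overlapped, with Sham rats 17 and 32 above all other rats of the series and MI + UA rat 58 below all others. The log2 fold change of MI versus Sham, -0.30, was close to that of Opa1, but its SE was 0.13 and its 95% interval ran from -0.57 to -0.03 (edgeR adjusted p = 0.156). It was -0.195 without Sham rat 32 (edgeR adjusted p = 0.43) and -0.40 without Sham rat 12 (adjusted p = 0.052).

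The 2 MiD proteins did not pass the test either. Mief1 (ENSRNOG00000017553) lay between 29.4 and 35.2 CPM in Sham, 28.5 and 34.6 CPM in MI, and 29 and 32.8 CPM in MI + UA, ranges that nearly coincide. Its log2 fold change of MI versus Sham was -0.07 (95% interval -0.27 to 0.12, edgeR adjusted p = 0.707), and it ran from -0.13 without MI rat 61 to -0.0336 without Sham rat 38. Mief2 (ENSRNOG00000028208) lay between 13.5 and 16.6 CPM in Sham, 9.96 and 16.6 CPM in MI, and 10.9 and 14.3 CPM in MI + UA. MI rat 36 reached the top of the Sham range while the other MI rats lay below the lowest Sham rat, and the log2 fold change was -0.21 (95% interval -0.51 to 0.09, edgeR adjusted p = 0.408). It was -0.37 without MI rat 36 (edgeR adjusted p = 0.112) and -0.11 without MI rat 61 (adjusted p = 0.742).

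Of the proteases that cut Opa1, Yme1l1 (ENSRNOG00000055012), which acts constantly, did not pass the test. It lay between 46.7 and 55.7 CPM in Sham, 48.1 and 52.7 CPM in MI, and 52.1 and 55.8 CPM in MI + UA. The log2 fold change of MI versus Sham was -0.04 with a 95% interval from -0.21 to 0.13 (edgeR adjusted p = 0.849), and it ran from -0.0874 without Sham rat 12 to -0.00382 without Sham rat 17. Oma1 (ENSRNOG00000007214), which is activated by loss of membrane potential, rested on 14 to 52 counts per library. Its level was 2.89, 2.31, 2.69 and 2.86 CPM in Sham, 2.34, 3.76, 3.84 and 2.53 CPM in MI, and 2.51, 3.34, 1.89 and 2.93 CPM in MI + UA. MI rats 57 and 61 were above all other rats, and the other MI rats lay within the Sham range. The log2 fold change was 0.18 (SE 0.25, edgeR adjusted p = 0.751), with a 95% interval from -0.36 to 0.71 that holds both a fall as large as that of Opa1 and a clear rise. It was 0.0473 without MI rat 61, 0.0862 without MI rat 57, 0.111 without Sham rat 17, 0.266 without MI rat 89 and 0.302 without MI rat 36. Counting error alone would give Oma1 a coefficient of variation from 18.2% to 22.9%, beside 9.92% to 25.4% observed, so smaller differences were not detectable at this depth.

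**Figure D2:**
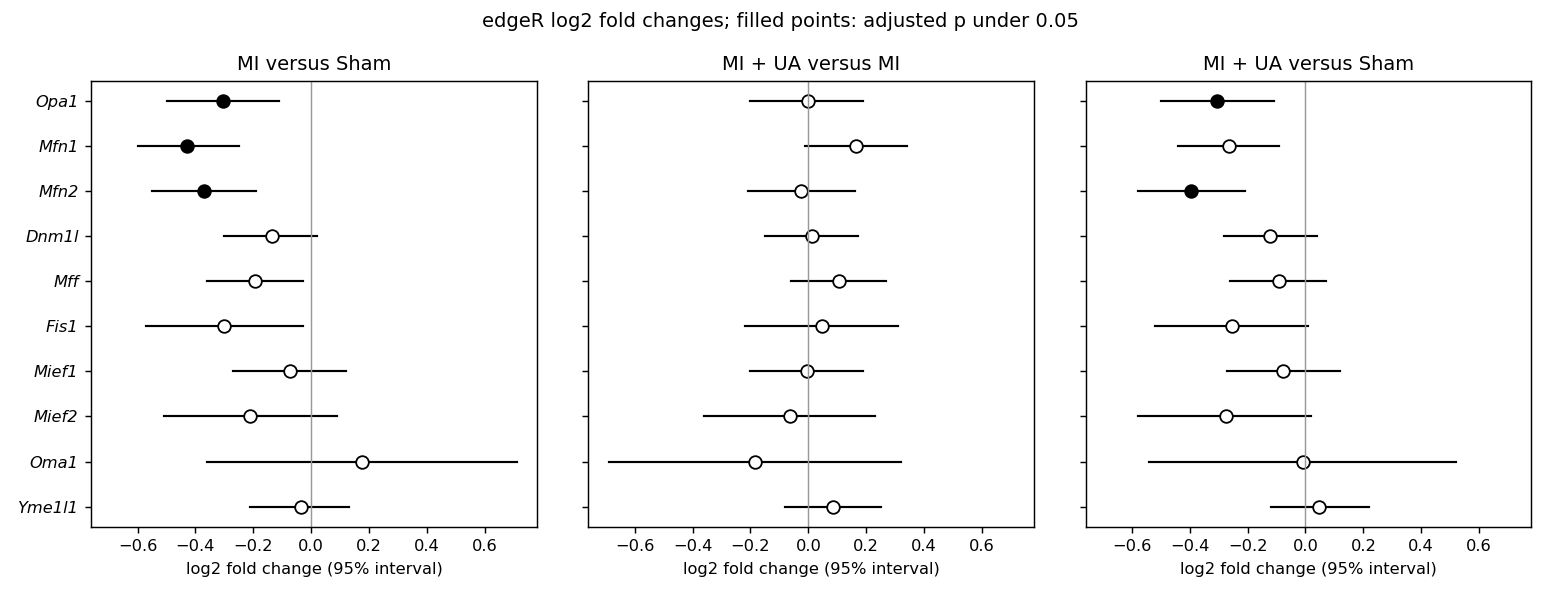
Log2 fold change (horizontal axes) of each gene in the 3 comparisons, from edgeR, with 95% intervals as lines and filled points where the adjusted p was under 0.05. Filled points are Opa1, Mfn1 and Mfn2 in MI versus Sham and Opa1 and Mfn2 in MI + UA versus Sham, all left of 0, and none stands in MI + UA versus MI.

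MI + UA was then compared with MI, the comparison that asks what UA changed after infarction. None of the 10 genes passed the test with edgeR (0 of 10, against 0% of all 18182 genes), and DESeq2 called 0 of the 10 as well. At an unadjusted p under 0.05 there were 0 of 10, against 3.79% of all genes, and the groups overlapped in all 10, where 2.34% of all genes did not overlap. The log2 fold changes ran from -0.18 to 0.16, with 5 genes lower and 5 higher, and their median was 0.01 beside 0.0047 over all genes.

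Mfn1 had the smallest unadjusted p of the 10, with MI + UA above MI by a log2 fold change of 0.16 (SE 0.08, 95% interval -0.01 to 0.34, edgeR unadjusted p = 0.0645 and adjusted p = 1). That value rested largely on rat 66, the rat of doubtful group. It was 0.0905 without rat 66, 0.0684 without rats 58 and 66, and 0.00966 with rat 66 counted in MI (edgeR unadjusted p = 0.92). Without rat 64 it was 0.22 (edgeR unadjusted p = 0.017, adjusted p = 1), and it lay between 0.142 and 0.186 without any other single rat. The other fusion GTPases gave -0.00098 for Opa1, with a 95% interval from -0.20 to 0.19, and -0.02 for Mfn2, with an interval from -0.21 to 0.16. Among the fission genes, Dnm1l gave 0.01 (-0.15 to 0.17), Mff 0.10 (-0.06 to 0.27) and Fis1 0.05 (-0.22 to 0.31). For the MiD proteins the values were -0.01 for Mief1 (-0.20 to 0.19) and -0.06 for Mief2 (-0.36 to 0.23). Yme1l1 was at 0.08 (-0.08 to 0.25), with MI + UA lower in only 1 of the 16 pairs of rats, and Oma1 at -0.18 (-0.69 to 0.32). These intervals leave room for changes of about the size that infarction made in Mfn1 only for Oma1, whereas the intervals of the other 9 genes end short of 0.43 on either side. Measured against a gene's own smaller fall in MI, the intervals of Dnm1l, Mff, Fis1, Mief1, Mief2 and Yme1l1 hold a rise of that size. Those of Opa1, Mfn1 and Mfn2 end short of it.

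The extremes of the MI + UA group were spread over its rats. Rat 58 was the lowest for Opa1, Mfn2, Fis1 and Mief2 but the highest for Mff, Mief1 and Oma1. Rat 64 was the lowest for Mfn1, Dnm1l, Mff and Oma1 and the highest for Mief2 and Yme1l1. Rat 29 was the highest for 3 genes, Opa1, Mfn2 and Fis1, and rat 66 for 2, Mfn1 and Dnm1l. The marker sums did differ between rats 58 and 66. Rat 66 had the highest cardiomyocyte sum of the group, 48300 CPM, and the lowest fibroblast sum, 2220 CPM, whereas rat 58 had the highest fibroblast sum, 3700 CPM. Without both rats, an alternative chosen after seeing the data, the genes called of the 10 were 3 in MI versus Sham, 0 in MI + UA versus MI and 2 in MI + UA versus Sham. Over all genes the same fit called 2233, 2 and 1326, where the fit of all 12 rats called 2064, 0 and 1716. With rat 66 counted in MI, the counts were 3, 0 and 3 of the 10, and 1913, 0 and 1830 over all genes.

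MI + UA was last compared with Sham, whose rats also serve the first comparison. Mfn2 and Opa1 were lower in MI + UA, 2 of the 10 genes with an edgeR adjusted p under 0.05 against 9.44% of all genes, of which 4.27% were lower and 5.16% higher. The groups did not overlap for Mfn1 and Mfn2, 2 of 10 against 14.3% of all genes. Mfn2 had a log2 fold change of -0.39 (SE 0.09, edgeR adjusted p = 0.00567), and it was called in all 8 fits with 1 rat left out. Opa1 had one of -0.31 (SE 0.09, edgeR adjusted p = 0.0424), and it was lost without Sham rat 17 (0.121), 32 (0.143) or 38 (0.0734) and without MI + UA rat 58 (0.129) or 64 (0.107). Mfn1, at -0.26 (SE 0.08, edgeR adjusted p = 0.0513), fell just short. It passed without MI + UA rat 66 (log2 fold change -0.34, adjusted p = 0.00977) and with DESeq2 (adjusted p = 0.0178). Set beside each other, Mfn1 stood at -0.43 in MI and -0.26 in MI + UA relative to Sham, Mfn2 at -0.37 and -0.39, and Opa1 at -0.31 and -0.31. With rat 66 counted in MI, Mfn1 stood at -0.347 in MI and -0.338 in MI + UA, and the gap between the groups was gone. The other 7 genes ran from -0.28 for Mief2 to 0.05 for Yme1l1, none with an adjusted p under 0.05.

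Genes that share or oppose a role were also compared within each rat, as a difference in log2 CPM, in which the size of the library cancels. Mfn1 minus Mfn2 was -0.67, -0.67, -0.64 and -0.79 in Sham rats 12, 17, 32 and 38, and -0.66, -0.82, -0.77 and -0.77 in MI rats 36, 57, 61 and 89. It was -0.72, -0.36, -0.66 and -0.51 in MI + UA rats 29, 58, 64 and 66. Sham and MI overlapped (difference -0.059, two-sided exact permutation p = 0.343), so this test does not tell the falls of the mitofusins apart. The MI + UA rats were higher than MI by 0.191, rats 58 and 66 most so, with an exact permutation p of 0.0571 that became 0.514 after adjustment over the 12 tests made. It was 0.125 without rat 58 and also 0.125 with rat 66 counted in MI (exact permutation p = 0.0857 and 0.286). Opa1 minus Dnm1l, fusion against fission GTPase, was 0.08 ± 0.14 in Sham, -0.09 ± 0.11 in MI and -0.11 ± 0.11 in MI + UA (SD, n = 4). The difference of MI from Sham was -0.168 (exact permutation p = 0.143, adjusted 0.514). Mief1 minus Mief2 and Oma1 minus Yme1l1 overlapped in all 3 comparisons, with exact permutation p from 0.171 to 0.886. The smallest p that 4 rats against 4 allow is 0.0286, and no ratio had an adjusted p under 0.514.

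**Figure D3:**
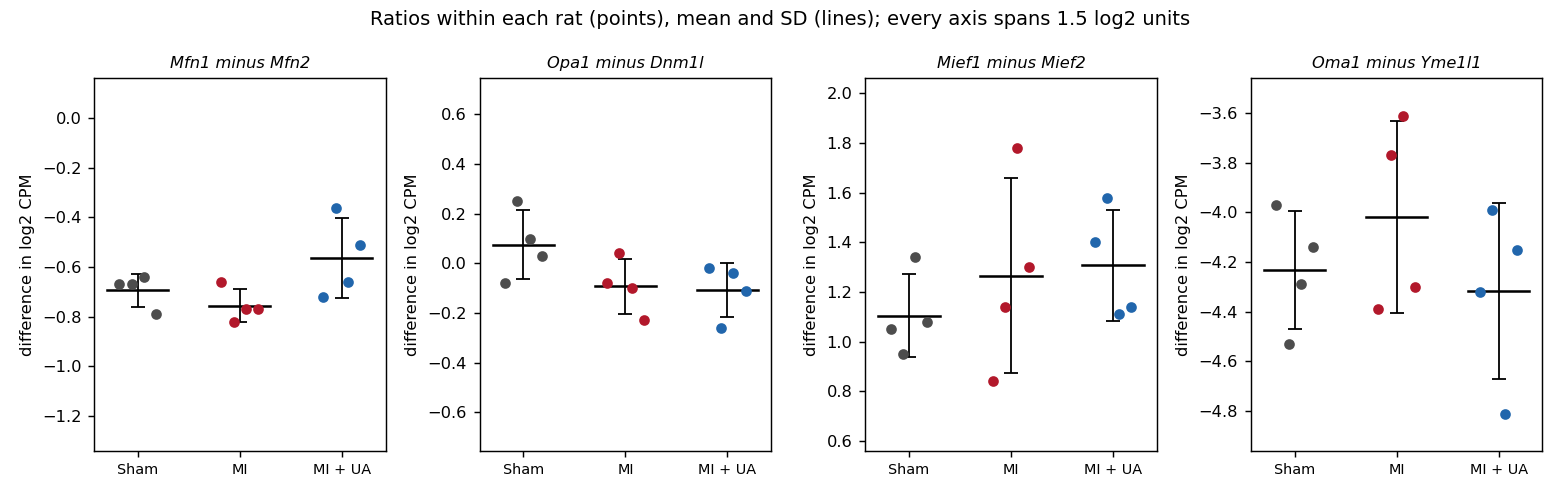
Difference in log2 CPM between 2 genes within each rat (vertical axes, all spanning the same number of log2 units), by group. Points are rats, wide lines are group means and bars are SD, n = 4. The groups overlap in all 4 panels, and MI + UA rats 58 and 66, at -0.36 and -0.51, lie highest in the panel of Mfn1 minus Mfn2.

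The mitofusins were set against Dnm1l after their values had been seen, so these ratios are given with no test. Mfn1 minus Dnm1l ran from 0.06 to 0.28 in Sham, from -0.24 to -0.04 in MI and from -0.05 to 0.12 in MI + UA. Mfn2 minus Dnm1l ran from 0.71 to 0.96 in Sham, from 0.53 to 0.68 in MI and from 0.35 to 0.68 in MI + UA. For both mitofusins the MI rats lay below the Sham rats, and for Mfn2 the MI + UA rats did too. Mff minus Dnm1l, receptor against GTPase, overlapped in the 3 groups.

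The levels of cell type markers moved with these results. In MI versus Sham, 11 of 11 cardiomyocyte markers were lower with an edgeR adjusted p under 0.05 (median log2 fold change -0.45), and 8 of 9 fibroblast markers (median 1.26) and 7 of 8 macrophage markers (median 1.00) were higher. Of the endothelial markers 1 of 7 was lower, and of the smooth muscle markers 3 of 5 were higher, beside 5.53% of all genes called lower and 5.82% higher. The 3 fusion GTPases lay between -0.43 and -0.31 and the 11 cardiomyocyte markers between -1.08 and -0.32, so the ranges overlapped. The difference between them was not tested. Rat 57 had the highest cardiomyocyte sum of the MI rats, 40700 CPM, and the lowest fibroblast sum, 2200 CPM, and it was the highest MI rat for 6 of the 10 genes, Opa1, Mfn2, Dnm1l, Mff, Fis1 and Yme1l1. In MI + UA versus Sham, 11 of 11 cardiomyocyte markers were lower with an edgeR adjusted p under 0.05 (median log2 fold change -0.39). Higher there were 8 of 9 fibroblast markers (median 1.36) and 7 of 8 macrophage markers (median 0.88). Endothelial markers were lower in 1 of 7, and 0 of 5 smooth muscle markers were called. Over all genes, 4.27% were called lower and 5.16% higher. The part of the cell type makeup in the falls of Opa1, Mfn1 and Mfn2 was not tested in either comparison. Reads assigned to genes, as a percentage of all reads in the table, ran from 46.9% to 48.3% in Sham, from 43.3% to 44.8% in MI and from 42.9% to 47.2% in MI + UA. In MI + UA, rats 29, 64 and 66 stood at 46.9%, 47.2% and 46.7%, near the Sham rats, and rat 58 at 42.9%. The part of this percentage in the results was not tested either.

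Other genes of the pathway were taken from 5 lists that held 55 entries, 50 of which were tested. Of 7 further fusion proteins, 2 fell in MI relative to Sham and none rose, beside 5.53% of all genes called lower and 5.82% higher, and the list's median log2 fold change was -0.30 beside 0.026 over all genes. They were Mtch2, an outer membrane protein that promotes fusion (-0.38, edgeR adjusted p = 0.00265), and Miga2, a mitoguardin (-0.37, adjusted p = 0.0326). Of 8 further fission proteins, 2 were lower and none higher, beside the same 5.53% and 5.82% of all genes, with a median of 0.01. These were Mtfr1l (-0.32, adjusted p = 0.0143) and Sh3glb1, endophilin B1, which bends membranes (-0.31, adjusted p = 0.0187).

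Of 12 proteins of inner membrane and matrix quality control, 5 were lower in MI, beside 5.53% of all genes, and all 12 had a log2 fold change under 0, with a median of -0.31. Phb, a prohibitin that scaffolds the inner membrane, gave -0.46 (edgeR adjusted p = 0.00115), and Dele1, which carries mitochondrial stress signals to the cytosol after cleavage by Oma1, gave -0.38 (adjusted p = 0.00861). The proteases Afg3l2 (-0.30, adjusted p = 0.0364) and Lonp1 (-0.41, adjusted p = 0.0374) followed, and Clpp was the other one called. The proteases Spg7 (-0.17, adjusted p = 0.409), Parl (-0.24, adjusted p = 0.237) and Htra2 (-0.16, adjusted p = 0.734) were not called, like Oma1 and Yme1l1.

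Of 18 enzymes that modify these proteins, 3 were lower and none higher, beside 5.53% of all genes called lower and 11.4% called in all, with a median of -0.12. Pink1, the kinase that marks damaged mitochondria and that phosphorylates Mfn2, had the largest fall, at -0.54 (edgeR adjusted p = 0.000294). Prkaca, the catalytic subunit of protein kinase A, which phosphorylates Dnm1l, was at -0.40 (adjusted p = 0.00144). Prkaa2, the AMPK subunit whose kinase phosphorylates Mff, was at -0.33 (adjusted p = 0.0159). Of 5 transport genes, Rhot2, a mitochondrial GTPase that binds motor adaptors, was lower (-0.41, adjusted p = 0.0237) and Kif5b, a kinesin, was higher (0.30, adjusted p = 0.0442).

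**Figure D4:**
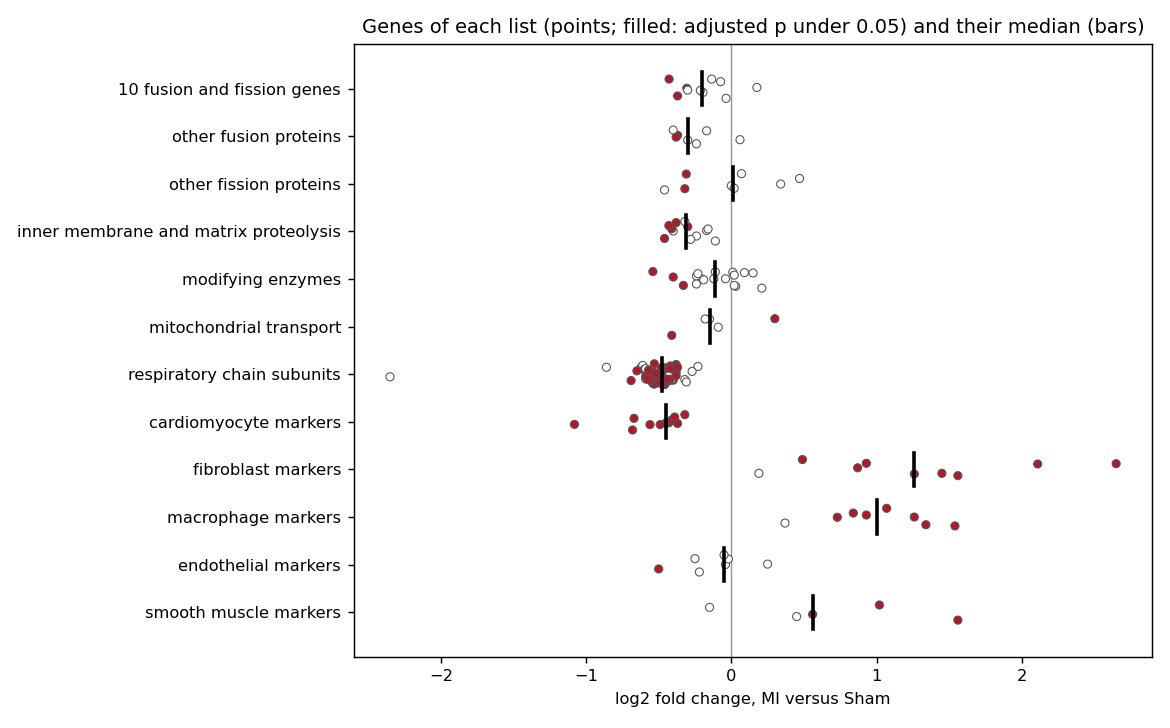
Log2 fold change of MI versus Sham (horizontal axis) for the genes of each list, with filled points where the edgeR adjusted p was under 0.05 and black bars at the list's median. The 10 fusion and fission genes have a median of -0.20, between the 18 modifying enzymes at -0.12 and the respiratory chain subunits at -0.48.

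Nuclear-encoded respiratory chain subunits give a measure of the mitochondrial gene programme as a whole. Of 56 tested, 41 fell in MI and none rose, beside 5.53% of all genes called lower, and their median log2 fold change was -0.48. The fusion and fission genes as a group had a median nearer 0, at -0.20, with 3 of 10 called, and the difference between the lists was not tested. In MI + UA versus MI, 0 genes were called in each of the 5 pathway lists and in the respiratory chain list by edgeR. At an unadjusted p under 0.05 there was 1 gene in the quality control list, 2 of 56 in the respiratory chain list and 0 in the others, beside 3.79% of all genes. Of the 56 respiratory chain genes 49 had a log2 fold change above 0 and 7 below it, with a median of 0.08, which was not tested as a list. In MI + UA versus Sham, 2 of 7 fusion, 1 of 8 fission, 3 of 12 quality control, 2 of 18 modifying and 0 of 5 transport genes were lower, beside 4.27% of all genes, and Spire1, an actin nucleator of fission, was higher (0.45, edgeR adjusted p = 0.0291).

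The genes most like each GTPase were sought among 10929 other genes by the root mean square difference of centred log2 CPM over the 12 rats, as a description. For Mfn1 they were Suclg2 (0.0633), a subunit of the citric acid cycle enzyme succinyl-CoA ligase, Mtch2 (0.0637) and Vdac1 (0.0672), the main channel of the outer membrane. Vdac3 was among those of Opa1 (0.0787), after Lrp5 (0.0715) and Rbm18 (0.0735). For Mfn2 they were Ipo13 (0.0587), the muscle filament gene Des (0.0642) and Usp13 (0.066). Dnm1l had Nek7 (0.0496), Cse1l (0.0512) and Dpf2 (0.0531). The spread of the GTPases themselves over the 12 rats was 0.208 for Mfn1, 0.196 for Opa1, 0.22 for Mfn2 and 0.0942 for Dnm1l (SD of log2 CPM), and all points share the same libraries.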

How the data were processed

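RNA of 12 rat hearts, 4 per group, was sequenced as strand-specific, ribosomal RNA-depleted libraries, 1 per rat, although the labels name polyA RNA as the molecule. The authors mapped read pairs to mRatBN7.2 with STAR 2.6.1c and deposited raw counts per Ensembl gene from HTSeq, with no normalization. The strand setting of the counting is not given in the sources used here, so reads of overlapping genes on opposite strands may not be separated. The 5 summary rows of the table held from 51.7% to 57.1% of counted reads and stayed out of library sizes. Depth was 6228706 to 19031695 reads on genes per library, and the precision of a gene follows its own counts.

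Groups came from the treatment labels, and rat 66 was kept as labelled. The test of all genes that reached 10 counts over the 12 libraries used edgeR 4.0.16 (quasi-likelihood, TMM, the 3 groups in one fit, R 4.3.3), and p-values were adjusted by Benjamini-Hochberg over all 18182 genes with a threshold of 0.05. SE is the absolute log2 fold change over the square root of F, and 95% intervals use its degrees of freedom. Log2 CPM had a prior count of 1. Ratios of genes were tested by two-sided exact permutation over rats. The code was checked on made-up counts with known answers. The deposited table held 0 columns of other samples.

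The 10 genes and all lists were chosen with earlier results of these data known. Named genes are the 10, up to 4 of each pathway list with the smallest adjusted p under 0.05 in MI versus Sham and in MI + UA versus MI, and the 3 nearest profiles of each GTPase among genes with an average log2 CPM of at least 1. Clpp, Spg7, Parl, Htra2 and Spire1 lie outside this rule and were named after their values were seen. Motif letters came from general knowledge and promoters from RefSeq (GRCr8), a build other than that of the counts. The coordinates printed are those of promoter windows on GRCr8, and no gene coordinates on the build of the counts are given. Alternatives were DESeq2 1.42.0, the compared groups alone, no low-count filter, edgeR's filterByExpr, DESeq2 size factors, mitochondrially encoded genes left out, rat 66 in MI, each rat left out, a prior count of 0.5 for the ratios and, added after seeing the data, rats 58 and 66 left out. Levels were not compared between genes, since transcript lengths were not used here. The labels name no cultures or litters. The main edgeR p-values rest on the spread between rats within groups, estimated over the 3 groups together with information shared across genes. The permutation p-values rest on regroupings of the rats of both groups compared.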

Additional observations from a re-analysis of the deposited data

Results flagged for a closer look

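Among the 42 sets of 4 rats examined (the 10 genes and the 4 ratios in 3 groups), 2 had a rat whose gap to its nearest neighbour, divided by the group's range, was above Dixon's 95% critical value for 4 samples, where chance gives about 1 in 20, or 2.1. Mfn2 in MI was highest in rat 57, at 7.40 log2 CPM, with the other MI rats between 7.24 and 7.26 (ratio 0.911). This rat had the highest cardiomyocyte marker sum of its group, and Mfn2 was called lower in MI with and without it. Fis1 in MI + UA was lowest in rat 58, at 4.43 log2 CPM, with the other MI + UA rats between 4.83 and 4.85 (ratio 0.968). This rat had the highest fibroblast marker sum of its group. The part of either in these values was not tested.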

How the results depend on the processing

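Mfn1 and Mfn2 were called lower in MI than in Sham under every alternative run, and Opa1 under all but 6 fits that left out 1 rat, so the number of the 10 genes called was 3 in the other alternatives and from 2 to 4 with 1 rat left out. In MI + UA versus MI it was 0 throughout, and over all genes 0, except 3 without the low-count filter and 2 without rats 58 and 66 (leaving out single rats was not counted over all genes). In MI + UA versus Sham it was 2, or 3 with DESeq2, filterByExpr, DESeq2 size factors, without mitochondrially encoded genes or with rat 66 in MI, and from 1 to 3 with 1 rat left out. Without rats 58 and 66, Opa1 was no longer called there (log2 fold change -0.275, edgeR adjusted p = 0.162) and Mfn1 was (-0.36, adjusted p = 0.0204). Signs turned only for values that no test had called, and the cause was not tested. In MI + UA versus MI the log2 fold change of Opa1 was 0.00101 without the low-count filter. Without rats 58 and 66 it was 0.0318 for Opa1, 0.00389 for Mfn2, -0.0307 for Dnm1l, 0.000357 for Mief1 and -0.426 for Oma1, whose sign held. With rat 66 in MI it was 0.00966 for Mfn1, whose sign held, -0.0401 for Dnm1l, -0.0124 for Fis1 and 0.0462 for Mief1. With 1 rat left out it ran from 0.0905 to 0.221 for Mfn1, -0.0478 to 0.0579 for Opa1, -0.0803 to 0.0419 for Mfn2, -0.0193 to 0.0514 for Dnm1l, -0.00895 to 0.131 for Fis1, -0.0379 to 0.0508 for Mief1 and -0.171 to 0.0918 for Mief2. For Mff it ran from 0.0621 to 0.16 and for Oma1 from -0.309 to -0.0549, and both kept their sign. In MI + UA versus Sham it ran from -0.102 to 0.0969 for Oma1 and from -0.00302 to 0.0806 for Yme1l1. The ratio Opa1 minus Dnm1l ran from -0.0624 to 0.0367 and Mief1 minus Mief2 from -0.105 to 0.209 in MI + UA versus MI. Mief1 minus Mief2 ran from -0.0106 to 0.303 in MI versus Sham, and Oma1 minus Yme1l1 from -0.194 to 0.0795 in MI + UA versus Sham. Depth limits Oma1 most, with 14 to 52 counts per library. With 4 rats a group, no ratio test can give a p under 0.0286. No paired analysis was possible because the rats' numbers are animal numbers that the groups do not share.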
